A study of Mus musculus with 8 samples.

Results

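The clustered histone genes are the protein-coding genes whose symbols begin with HIST1H, HIST2H, HIST3H or HIST4H. In the expression table analysed here, 71 of the 58304 genes kept met this rule, which uses the symbol and the transcript type and no measured value. A further 18 entries with such symbols were not protein coding and were left out. The study compared skin of C57BL/6 mice aged 6 to 8 weeks, taken within 2 mm of wounds at day 6, after the wounds had been given rFGF4 (recombinant fibroblast growth factor 4) or PBS (phosphate-buffered saline), as the labels have it. Each group had 4 libraries of total RNA, and the labels do not say whether these came from separate animals, so p-values measure only the spread between these libraries. The table went against that description: all 58304 gene identifiers belonged to human, with 0 from mouse. Groups are therefore named only by their labels, PBS or rFGF4, and nothing is said here of mouse wounds.

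Histones are the proteins around which DNA is wound. The core histones H2A, H2B, H3 and H4 form the nucleosome, and the linker histone H1 binds the DNA where it enters and leaves. Most clustered histone genes are transcribed mainly during S phase, and their mRNAs usually end in a stem-loop bound by SLBP (stem-loop binding protein) in place of a poly(A) tail. A few members, among them HIST1H1C, HIST1H2AC, HIST1H2BD, HIST1H2BK and HIST2H2BE, are known to give polyadenylated transcripts as well. No source used here says whether the libraries were made from poly(A)-selected RNA, which holds stem-loop mRNAs poorly. In bulk RNA, a smaller share of cells in S phase and less histone mRNA per cell cannot be told apart.

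Libraries held 62044121 to 73680756 deposited counts. Markers of basal keratinocytes, the cells of the lowest epidermal layer, were high in every library, with a summed level of 2231 to 2554 FPKM (fragments counted per kilobase of a gene's length and scaled to depth) in the libraries labelled PBS and 2050 to 2166 in those labelled rFGF4. Of the 8 genes of that list, KRT14 and KRT5 stood highest, at means of 1026 and 910 FPKM, and weighed most in the sum. By the test described below, 5 of the 8 had a log2 fold change above 0 and 3 below, with a median of 0.06. Only KRT15 passed (log2 fold change −0.56, SE 0.115, edgeR adjusted p = 0.0184), where 4.54% of all genes were lower. The 6 markers of dermal fibroblasts summed to only 0.776 to 0.864 FPKM in the libraries labelled PBS and to 0.411 to 0.511 in those labelled rFGF4, which did not overlap. COL1A1, COL3A1 and DCN were each lower in all 4 libraries labelled rFGF4, and COL1A2, LUM and PDGFRA overlapped. Markers of T cells, skeletal muscle and erythrocytes summed to at most 0.114 FPKM in any library, although whole skin holds these cells. Macrophage markers summed to 7.72 to 8.86 FPKM in the libraries labelled PBS and 8.16 to 11.03 in those labelled rFGF4, and endothelial markers to 1.85 to 3.05 and 3.06 to 4.08. The macrophage sum was almost all CD68, at a mean of 8.66 FPKM. CD14 was at 0.367, and CSF1R, LYZ and C1QA were at 0.0244 or lower, so the sum does not by itself show macrophages. The endothelial sums did not overlap, with only a narrow gap between the groups. CDH5 (mean 1.52 FPKM) and PECAM1 (0.482) were higher in all 4 libraries labelled rFGF4, while VWF (0.975) and KDR (0.0426) overlapped. The part of these cell types in the histone results was not tested.

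The clustered histone genes were expressed very unevenly. Of the 71 members, 3 had a mean level of at least 10 FPKM over the 8 libraries, 21 lay between 1 and 10, 29 between 0.1 and 1, and 18 below 0.1. HIST1H2BK, an H2B gene, had a mean level of 142.0 FPKM and made up 48.4% of the members' summed level. With HIST1H1C, a linker histone gene, and HIST3H2A, an H2A gene outside the large cluster, it made up 64.8%. FPKM is per length, so these shares rest on the annotated gene lengths. HIST1H2BK spans 381 bases, and it had 4056 to 5011 counts per library where all members together had 14726 to 19335. HIST1H2AA, HIST1H4F and HIST2H3PS2 had 0 counts in every library, and 17 other members never exceeded 12 counts, which is taken here as the limit that a count of 0 allows. By position in the table (the sources used here do not name its genome build), 55 members lay on chromosome 6 (the HIST1 cluster), 15 on chromosome 1 (HIST2 and HIST3) and 1 on chromosome 12 (HIST4H4).

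**Figure D1:**
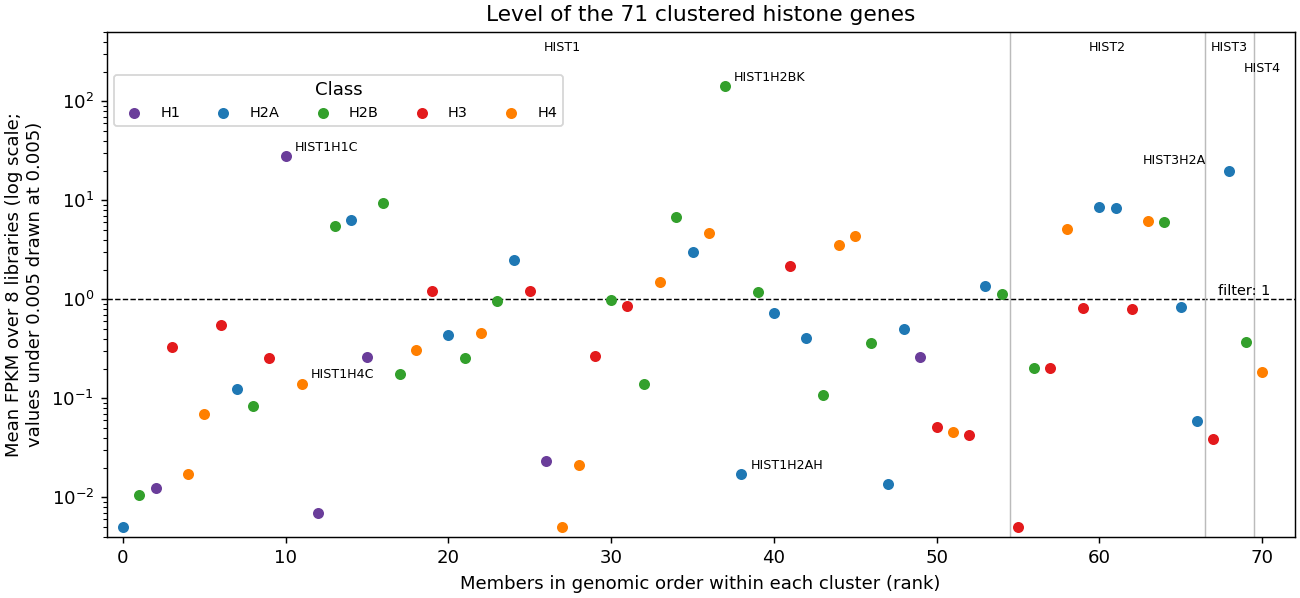
Mean FPKM over the 8 libraries (log axis) of each of the 71 clustered histone genes, in genomic order within its cluster and coloured by histone class; values under 0.005 are drawn at 0.005 and the dashed line marks the mean FPKM of 1 at which genes were tested. HIST1H2BK stands highest at 142.0 FPKM, and 24 of the 71 members lie above the line.

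Each class had its own leading genes. Among the 6 H1 members, HIST1H1C had a mean level of 28.1 FPKM, and the next, HIST1H1B, had 0.260. HIST1H1B and the other H1 genes (HIST1H1E, HIST1H1D, HIST1H1A and the testis form HIST1H1T) were thus at 0.260 FPKM or lower, so the H1 class was almost wholly HIST1H1C. The 17 H2A members were led by HIST3H2A at 19.8 FPKM and HIST2H2AA3 at 8.65. The 18 H2B members were led by HIST1H2BK and by HIST1H2BD at 9.36 FPKM. By mean count, which is not per length, HIST2H2BE (1073) stood above HIST1H2BD (666), and HIST1H2AC (856) above HIST2H2AA3 (388). The H3 and H4 classes had no gene at 10 FPKM: the 15 H3 members were led by HIST1H3H at 2.16 and HIST1H3E at 1.21, and the 15 H4 members by HIST2H4B at 6.26 and HIST2H4A at 5.15. HIST1H4C, another H4 gene, was at 0.141 FPKM and had at most 16 counts in any library.

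Members were tested between the groups where their mean level was at least 1 FPKM, which 24 of 71 reached. Those 24 carried 95.6% of the members' summed level. HIST1H2BO at 1.13 FPKM was just inside this limit, and HIST1H2BH at 0.991 and HIST1H2BG at 0.970 were just outside it. Of the 24, 3 were lower in the libraries labelled rFGF4 (12.5%), where 4.54% of the 11536 genes tested were lower, and 0 were higher, where 5.49% of all genes were (edgeR's quasi-likelihood test, Benjamini-Hochberg adjusted p under 0.05). At an unadjusted p under 0.05, edgeR gave 9 members lower (37.5%) and 0 higher, against 11.6% and 13.5% of all genes. After adjustment DESeq2 and limma each gave 6 members lower (25.0%) and 0 higher. Over all genes DESeq2 gave 7.33% lower and 8.51% higher, and limma 5.10% and 4.94%. The log2 fold change was below 0 in 22 of the 24 (91.7%), against 49.7% of all genes, and its median was −0.35 against 0.00 over all genes. In 6 of the 24 (25.0%) all 4 libraries labelled rFGF4 lay below all 4 labelled PBS, against 10.4% of all genes, and the reverse was seen in 0 members, against 8.76% of all genes. Neighbouring histone genes are not independent of each other, so these shares describe the members and carry no test.

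The 3 members that fell were HIST1H2AG, HIST1H4H and HIST2H4B. HIST1H2AG encodes an H2A (ENSG00000196787, chromosome 6, 27133042 to 27135291, plus strand). Its level was 3.80, 4.10, 3.06 and 3.999 FPKM in PBS replicates 1 to 4 and 2.17, 2.59, 1.77 and 2.34 in rFGF4 replicates 1 to 4. The groups did not overlap, and in each group replicate 3 was lowest and replicate 2 highest. The mean was 3.74 ± 0.468 FPKM in the libraries labelled PBS and 2.22 ± 0.344 in those labelled rFGF4 (SD, n = 4). The log2 fold change was −0.73 (SE 0.145, edgeR adjusted p = 0.0164), the most negative of the 24.

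HIST1H4H encodes an H4 (ENSG00000158406, chromosome 6, 26277609 to 26285638, minus strand). Its level was 1.74, 2.03, 2.02 and 1.74 FPKM in PBS replicates 1 to 4 and 1.41, 1.14, 1.15 and 0.849 in rFGF4 replicates 1 to 4. The groups did not overlap, and rFGF4 replicate 4 was the lowest of the 8 libraries. The mean was 1.88 ± 0.164 FPKM in the libraries labelled PBS and 1.14 ± 0.230 in those labelled rFGF4 (SD, n = 4), with a log2 fold change at −0.70 (SE 0.153, edgeR adjusted p = 0.0239).

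HIST2H4B, an H4 gene of the second cluster (ENSG00000270276, chromosome 1, 149854045 to 149861148, minus strand), was at 6.53, 7.27, 6.95 and 7.58 FPKM in PBS replicates 1 to 4 and at 5.14, 5.52, 5.71 and 5.41 in rFGF4 replicates 1 to 4. All libraries labelled rFGF4 lay below all labelled PBS. Mean levels were 7.08 ± 0.450 and 5.44 ± 0.240 FPKM (SD, n = 4), with a log2 fold change at −0.35 (SE 0.0868, edgeR adjusted p = 0.0377). HIST2H4A (ENSG00000270882, chromosome 1, 149832659 to 149839767, plus strand) is its near-identical copy, and no source used here says how reads were split between such copies, so the value of each is uncertain. HIST2H4A was at 5.08, 5.75, 3.85 and 7.60 FPKM in PBS replicates 1 to 4 and at 5.47, 4.52, 4.62 and 4.33 in rFGF4 replicates 1 to 4, and its groups overlapped (log2 fold change −0.21, SE 0.200, edgeR adjusted p = 0.573). Without PBS replicate 4 that value was −0.02. The sum over both copies was 10.8 to 15.2 FPKM in the libraries labelled PBS and 9.74 to 10.6 in those labelled rFGF4, and did not overlap.

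**Figure D2:**
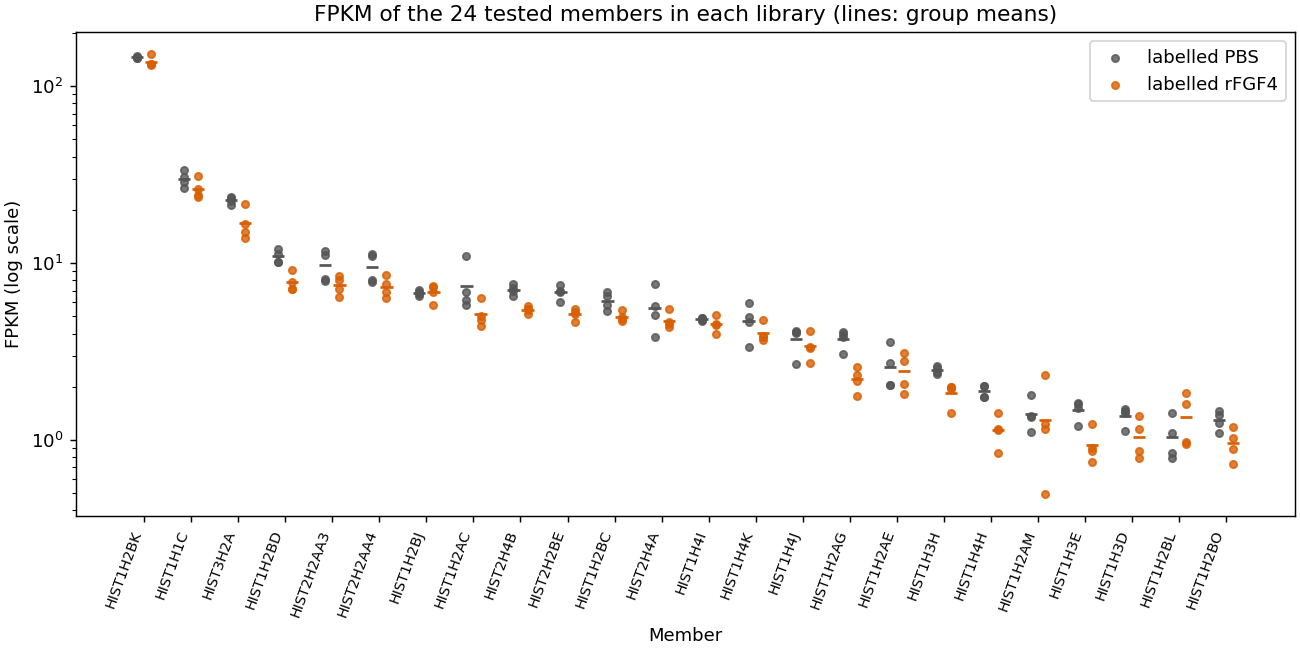
FPKM (log axis) of the 24 tested members in each library, ordered by mean level; points are libraries, grey for those labelled PBS and orange for rFGF4, and short lines are group means. HIST1H2AG, HIST1H4H and HIST2H4B do not overlap between the groups, whereas in HIST1H2BK rFGF4 replicate 4, at 151.7 FPKM, lies above every library labelled PBS.

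DESeq2, and limma at both pseudocounts, also called these 3, but in edgeR the calls moved with the libraries, the filter and the replicate block. Without PBS replicate 2, edgeR called 0 members. Without rFGF4 replicate 2 or rFGF4 replicate 3 it called 1 (HIST1H2AG), and without rFGF4 replicate 4 it called 5. Calls over all 11536 genes moved too, with 275, 454, 311 and 547 genes lower in these 4 fits, against 524 in the main fit. HIST1H2AG kept its call under 15 of 17 alternatives and lost it without PBS replicate 2 or rFGF4 replicate 1. HIST1H4H kept it under 11, and leaving out replicate 2 or 3 of either group ended it. HIST2H4B kept it under 7, and among single libraries left out these were only PBS replicate 1 and rFGF4 replicate 4. HIST2H4B did not pass under any of the 3 other filters, nor HIST1H4H with no filter, and with the replicate block the edgeR adjusted p was 0.0524 for HIST1H4H and 0.0616 for HIST2H4B. All 3 had a log2 fold change below 0 under every alternative.

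Another 3 members just missed the threshold in edgeR and were called lower by DESeq2 and by limma with a pseudocount of 1. HIST1H2BD, an H2B gene known for a polyadenylated transcript, was at 10.2, 12.1, 10.1 and 11.3 FPKM in PBS replicates 1 to 4 and at 7.14, 7.87, 7.12 and 9.09 in rFGF4 replicates 1 to 4. The groups did not overlap (log2 fold change −0.46, SE 0.123, edgeR adjusted p = 0.0516). HIST2H2BE, an H2B gene of the second cluster, was at 6.06, 6.91, 6.88 and 7.52 FPKM in PBS replicates 1 to 4 and at 5.51, 4.67, 5.28 and 5.16 in rFGF4 replicates 1 to 4. These groups did not overlap either (log2 fold change −0.38, SE 0.103, edgeR adjusted p = 0.0515). HIST1H3E, an H3 gene, was at 1.61, 1.52, 1.20 and 1.61 FPKM in PBS replicates 1 to 4 and at 1.23, 0.901, 0.755 and 0.864 in rFGF4 replicates 1 to 4. There rFGF4 replicate 1 lay just above PBS replicate 3, so the groups overlapped (log2 fold change −0.64, SE 0.175, edgeR adjusted p = 0.0549). In edgeR each passed when certain single libraries were left out: HIST2H2BE without PBS replicate 1, HIST1H2BD without rFGF4 replicate 4, and HIST1H3E without PBS replicate 3 or without rFGF4 replicate 1.

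The 3 most abundant members did not pass the test. HIST1H2BK (ENSG00000197903, chromosome 6, 27146418 to 27146798, minus strand) was at 145.2, 146.5, 144.5 and 148.2 FPKM in PBS replicates 1 to 4 and at 132.6, 134.1, 133.2 and 151.7 in rFGF4 replicates 1 to 4. rFGF4 replicate 4 was the highest of all 8 libraries and the other 3 of its group were the lowest (log2 fold change −0.06, SE 0.0722, edgeR adjusted p = 0.693). HIST1H1C (ENSG00000187837, chromosome 6, 26055787 to 26056428, minus strand) was at 26.5, 28.8, 30.7 and 33.7 FPKM in PBS replicates 1 to 4 and at 26.2, 24.3, 23.6 and 31.2 in rFGF4 replicates 1 to 4. Its groups overlapped (log2 fold change −0.16, SE 0.128, edgeR adjusted p = 0.509). HIST3H2A (ENSG00000181218, chromosome 1, 228456979 to 228457873, minus strand) was at 23.7, 21.2, 23.4 and 22.5 FPKM in PBS replicates 1 to 4 and at 15.03, 16.6, 13.9 and 21.7 in rFGF4 replicates 1 to 4. Only rFGF4 replicate 4 reached the PBS range (log2 fold change −0.40, SE 0.147, edgeR adjusted p = 0.130). Without that library the log2 fold change of HIST3H2A was −0.58 and the edgeR adjusted p was 0.00551.

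rFGF4 replicate 4 was the highest of its group in 12 of the 24 tested members, and PBS replicate 4 likewise in 12. The lowest of the libraries labelled rFGF4 was most often replicate 3, in 9 of 24.

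**Figure D3:**
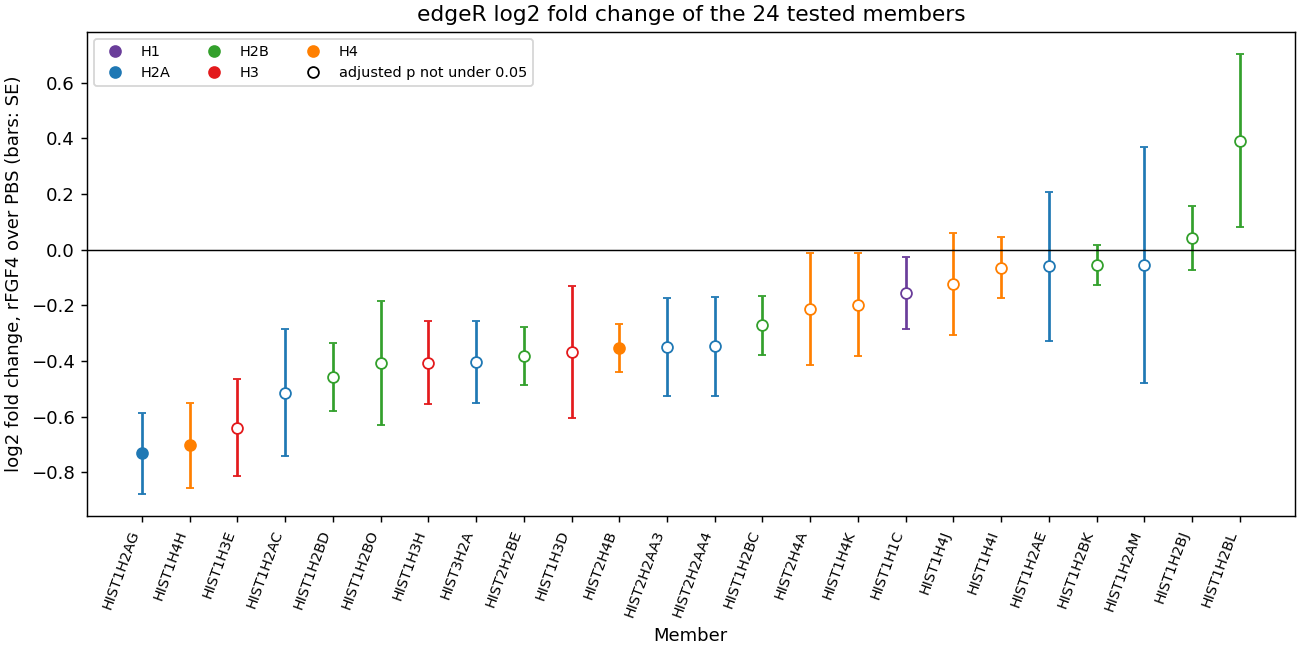
Log2 fold change (rFGF4 over PBS, edgeR) of the 24 tested clustered histone genes, coloured by class; bars are 1 SE each way and filled points have an adjusted p under 0.05. HIST1H2AG, HIST1H4H and HIST2H4B are filled, and HIST1H2BJ and HIST1H2BL are the 2 members above 0.

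By class, 1 of 7 tested H2A members and 2 of 6 tested H4 members fell in edgeR, where 4.54% of all genes did. At an unadjusted p under 0.05, 2 H2A and 2 H4 members were lower, where 11.6% of all genes were. With so few members in each class, these counts do not set the classes apart. Of the 7 H2B members tested, 0 passed in edgeR (3 were lower at an unadjusted p under 0.05, and DESeq2 and limma each called 2 lower). Of the 3 H3 members, 0 passed in edgeR (2 were lower at an unadjusted p under 0.05, and DESeq2 and limma each called 1 lower). The 1 tested H1 member, HIST1H1C, did not pass with any of the 3 tools or at an unadjusted p under 0.05. HIST1H3H had the highest mean FPKM of the H3 genes. Its level was 2.64, 2.42, 2.56 and 2.35 FPKM in PBS replicates 1 to 4 and 2.00, 1.41, 1.99 and 1.95 in rFGF4 replicates 1 to 4. Its groups did not overlap, yet it did not pass (log2 fold change −0.41, SE 0.149, edgeR adjusted p = 0.131). HIST1H2AC, an H2A gene known for a polyadenylated transcript, ranged from 5.83 to 10.99 FPKM in the libraries labelled PBS and from 4.40 to 6.38 in those labelled rFGF4. PBS replicate 4 held its highest value (log2 fold change −0.51, SE 0.228, edgeR adjusted p = 0.205), and without that library the log2 fold change was −0.26. The 2 members with a log2 fold change above 0 were both H2B genes, HIST1H2BL (0.39, SE 0.310, edgeR adjusted p = 0.491) and HIST1H2BJ (0.04, SE 0.115, edgeR adjusted p = 0.862).

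Summed over members, the level was 303 to 329 FPKM in the libraries labelled PBS and 259 to 301 in those labelled rFGF4, a ratio of means of 86.8%. Only a narrow gap separated the groups, with rFGF4 replicate 4 nearest to PBS. Without HIST1H2BK the sums were 158 to 181 and 125 to 150 FPKM, a ratio of 80.3%. The summed H2A level was 60.2 ± 5.83 FPKM in the libraries labelled PBS and 46.0 ± 5.97 in those labelled rFGF4, the summed H3 level 10.3 ± 1.15 and 7.38 ± 0.935, and the summed H4 level 29.3 ± 0.898 and 24.2 ± 0.971 (SD, n = 4). In these 3 classes the groups did not overlap. The H1 sums, 30.6 ± 3.07 and 26.8 ± 3.33 FPKM, and the H2B sums, 183 ± 2.61 and 168 ± 10.6 (SD, n = 4), overlapped. Leaving HIST1H2BK out of H2B gave 36.1 to 38.8 FPKM against 28.9 to 32.3, which did not overlap. By cluster, the rFGF4 mean was 89.5% of the PBS mean for HIST1, 78.6% for HIST2 and 74.0% for HIST3, the last being almost wholly HIST3H2A.

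**Figure D4:**
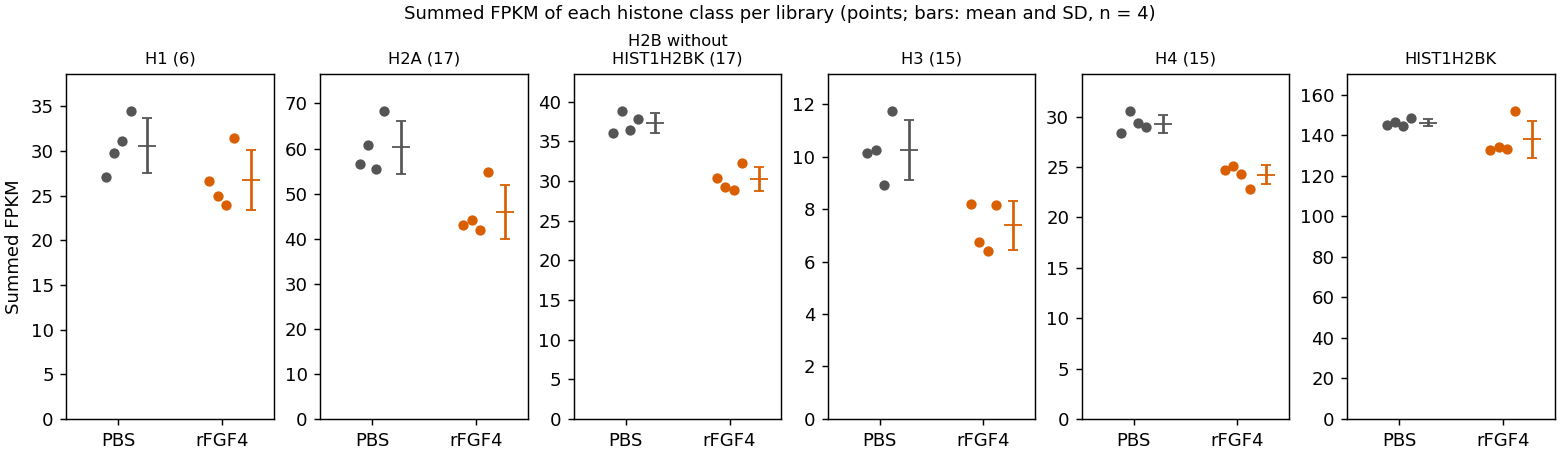
Summed FPKM of each histone class in each library, with HIST1H2BK in a panel of its own and left out of H2B; points are libraries, bars are mean and SD (n = 4), and each axis starts at 0. The H2A, H2B without HIST1H2BK, H3 and H4 sums do not overlap between the groups, and the H1 sums and HIST1H2BK do.

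Many H2A and H2B genes lie head to head and share the stretch between their starts. By the table's coordinates 12 pairs of members started within 1000 bases of each other on opposite strands and ran away from each other. All of these pairs but HIST1H3J with HIST1H2BO joined an H2A to an H2B gene. Their levels were often far apart: HIST1H2BK at 142.0 FPKM lay 331 bases from HIST1H2AH at 0.0171, HIST3H2A at 19.8 lay 234 bases from HIST3H2BB at 0.372, and HIST2H2BE at 6.00 lay 323 bases from HIST2H2AC at 0.830. Both genes were tested in 3 pairs. HIST1H2AG, which fell, starts 292 bases from HIST1H2BJ (ENSG00000124635, chromosome 6, 27125897 to 27132750, minus strand). HIST1H2BJ was at 6.53, 6.89, 6.73 and 7.01 FPKM in PBS replicates 1 to 4 and at 7.35, 5.78, 6.90 and 7.41 in rFGF4 replicates 1 to 4, with overlapping groups. The log2 ratio of HIST1H2BJ to HIST1H2AG ran from 0.75 to 1.14 in the libraries labelled PBS and from 1.16 to 1.96 in those labelled rFGF4. The groups did not overlap, and the difference of 0.77 had an exact two-sided permutation p of 0.0286, the smallest that 4 against 4 libraries allow (0.0857 after adjustment over the 3 pairs). The same difference was 0.21 for HIST1H2BC over HIST1H2AC (exact permutation p = 0.629) and 0.17 for HIST1H2AM over HIST1H2BO (exact permutation p = 0.771), each 0.771 after adjustment. A single pair out of 3 cannot go below 0.0857 after adjustment at this sample size, so the adjusted value decides nothing for the pair with HIST1H2AG.

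**Figure D5:**
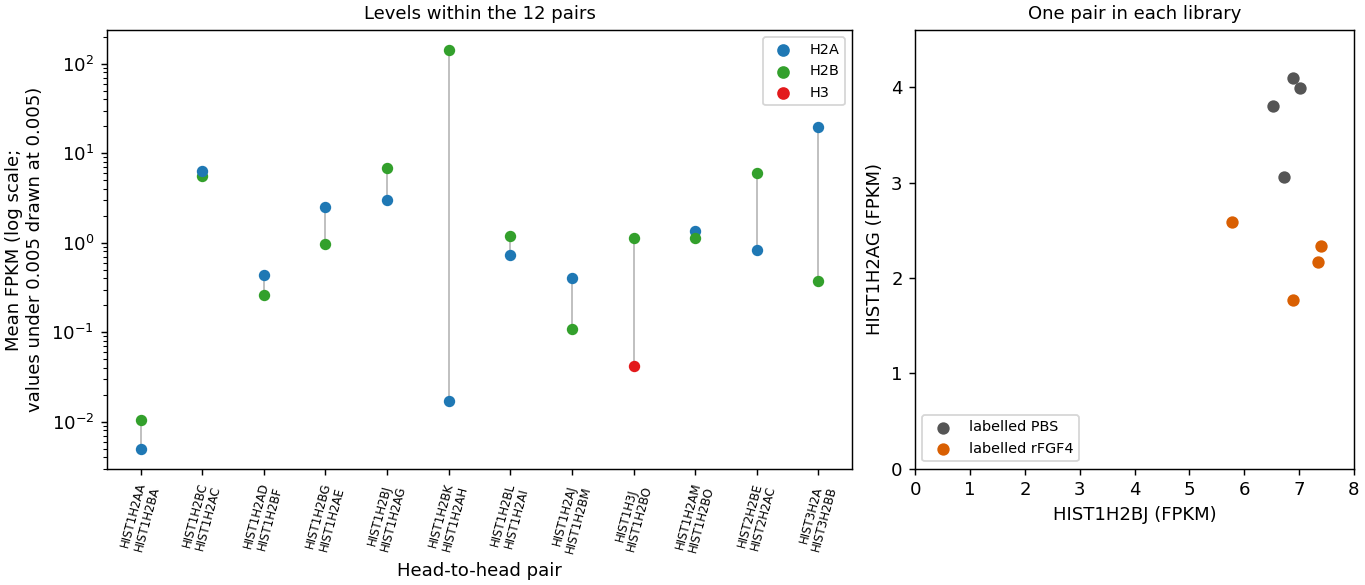
Left, mean FPKM over the 8 libraries (log axis; values under 0.005 drawn at 0.005) of both genes of the 12 head-to-head pairs, coloured by class and joined by a line; right, FPKM of HIST1H2BJ against HIST1H2AG in each library. On the right the libraries labelled rFGF4 lie below those labelled PBS for HIST1H2AG, at 1.77 to 2.59 against 3.06 to 4.10 FPKM, and overlap them for HIST1H2BJ.

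The nearest members of the called genes did not all move with them. HIST2H2BE, described above, is the neighbour of HIST2H4B and was also lower in all 4 libraries labelled rFGF4, without passing in edgeR. HIST1H4I, which follows HIST1H2AG on chromosome 6, was at 4.70 to 4.91 FPKM in the libraries labelled PBS and 3.96 to 5.06 in those labelled rFGF4 (log2 fold change −0.06, SE 0.110, edgeR adjusted p = 0.771). HIST1H2BI, next to HIST1H4H, had a mean of only 0.140 FPKM and was not tested. HIST2H3A, an H3 gene that overlaps HIST2H4B on the opposite strand, had a mean of 0.809 FPKM and was not tested, and it has its own near-identical copy in HIST2H3C, at 0.822 FPKM. No source used here says that counting was by strand, so reads of HIST2H4B and HIST2H3A cannot be told apart where they overlap. In all, 5 of the 24 tested members overlapped another gene of the table and 19 did not. A further copied pair, HIST2H2AA3 and HIST2H2AA4, gave nearly the same log2 fold change of −0.35 in both (SE 0.176 and 0.177, edgeR adjusted p = 0.260 and 0.266), and their sum was 15.8 to 23.1 FPKM in the libraries labelled PBS and 12.8 to 17.1 in those labelled rFGF4.

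The called members shared a form of gene model, an observation made after the values were seen. All 3 span over 1000 bases or have several transcripts in the table, whereas a typical clustered histone gene is a single short exon. Of the 12 tested members of that longer form, 3 fell in edgeR and 8 were lower at an unadjusted p under 0.05. Of these 12, 6 did not overlap between the groups, and the median log2 fold change was −0.39. Of the 12 tested members with 1 transcript of at most 1000 bases, 0 passed in edgeR (1 was lower at an unadjusted p under 0.05), 0 did not overlap, and the median was −0.18. Over all genes edgeR gave 4.54% lower, 11.6% were lower at an unadjusted p under 0.05, and 10.4% did not overlap downwards. With only 12 members, the counts of 0 do not set the shorter form apart from all genes. The log2 fold change was below 0 in 11 of 12 members of each kind. The forms also differed in depth, with a median mean count of 540 in the longer and 111 in the shorter, and in precision, with a median SE of 0.134 and 0.184. Whether the difference between the forms goes beyond depth was not tested.

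The remaining 47 members were under a mean of 1 FPKM and together summed to 12.8 to 15.2 FPKM in the libraries labelled PBS and 9.58 to 13.2 in those labelled rFGF4. In an edgeR fit without a filter, 44 of them had counts, and 27 of these exceeded 12 counts in some library. A log2 fold change below 0 was seen in 23 of those 27, with a median of −0.31, against −0.01 over all genes of that fit. With edgeR, 0 of the 44 passed after adjustment over all 29674 genes of that fit. At an unadjusted p under 0.05, 5 of the 44 were lower, all 5 among the 27, against 6.77% of those 29674 genes. The smallest adjusted p was 0.188, for the H4 gene HIST1H4E (log2 fold change −0.73, SE 0.239). HIST1H1B, a replication-dependent linker histone, was at 0.322, 0.555, 0.190 and 0.525 FPKM in PBS replicates 1 to 4 and at 0.113, 0.228, 0.0534 and 0.0955 in rFGF4 replicates 1 to 4, from at most 29 counts. HIST1H3G, an H3 gene, was listed at 0 in rFGF4 replicate 4, and had 123 to 185 counts in the other libraries labelled rFGF4.

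Few genes of the related lists passed the test, and over all genes edgeR gave 4.54% lower and 5.49% higher. Of the 5 members known for polyadenylated transcripts, 0 passed in edgeR (2 were lower at an unadjusted p under 0.05, and DESeq2 and limma each called 2 lower), with a median log2 fold change of −0.38. Of 12 histone genes outside the clusters, most of them for replication-independent variants with polyadenylated mRNAs, 1 fell and 0 rose in edgeR, with a median of −0.12 against 0.00 over all genes. That gene was H2AFV, which encodes the variant H2A.Z.2: its log2 fold change was −0.22 (SE 0.0573, edgeR adjusted p = 0.0449), from 24.1 ± 0.660 to 20.3 ± 1.11 FPKM (SD, n = 4). H1F0, a linker histone of non-dividing cells, was at 74.0 ± 2.65 and 60.4 ± 4.11 FPKM (SD, n = 4), with no overlap (log2 fold change −0.27, SE 0.0758, edgeR adjusted p = 0.0633). On the log2 scale the difference was 0.15 for H2AFX, −0.17 for H2AFZ, −0.06 for H3F3A and −0.13 for H3F3B, with edgeR adjusted p from 0.572 to 0.767. DESeq2 and limma each called 2 of the list lower, H2AFV and H1F0, and 0 higher. In edgeR, leaving out 1 library ended the call of H2AFV except for rFGF4 replicates 2 and 4, while H1F0 passed without rFGF4 replicate 4 and with the replicate block (edgeR adjusted p = 0.0455).

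Among 22 factors of histone transcription and 3′-end formation, 0 fell and 1 rose in edgeR, with 1 lower and 4 higher at an unadjusted p under 0.05 (11.6% and 13.5% of all genes). DESeq2 called 1 lower and 3 higher, and limma called 0 in either direction. ERI1, an exonuclease that trims the histone mRNA stem-loop, was at 3.33 ± 0.523 FPKM in the libraries labelled PBS and 5.72 ± 1.60 in those labelled rFGF4 (SD, n = 4). Its log2 fold change was 0.80 (SE 0.204, edgeR adjusted p = 0.0438). Its groups overlapped, because rFGF4 replicate 3 was at 3.60 FPKM. Leaving out any library other than that one ended its call. SLBP was at 32.8 ± 5.68 and 30.5 ± 3.70 FPKM, and NPAT, the coactivator of histone gene transcription, at 2.49 ± 0.485 and 2.48 ± 0.382 (SD, n = 4). Neither passed (edgeR adjusted p = 0.791 and 0.957).

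Among 20 histone chaperones and assembly factors, 1 fell and 1 rose in edgeR, near the 4.54% and 5.49% of all genes. At an unadjusted p under 0.05, 3 were lower and 1 higher, against 11.6% and 13.5% of all genes. DESeq2 called 1 lower and 1 higher, and limma called 2 lower, ASF1B among them, and 1 higher. RBBP4, a histone-binding subunit of the chaperone CAF-1 and other complexes, went from 11.6 ± 0.806 to 8.74 ± 1.01 FPKM (SD, n = 4), which is −0.39 on the log2 scale (SE 0.0848, edgeR adjusted p = 0.0246). HIRA, a chaperone that deposits the replication-independent H3.3, went from 17.4 ± 0.765 to 20.5 ± 0.722 FPKM (SD, n = 4), which is 0.26 on the log2 scale (SE 0.0502, edgeR adjusted p = 0.0137). The call of HIRA was lost without PBS replicate 2, and that of RBBP4 without PBS replicate 1, 2 or 4 or rFGF4 replicate 3. Of 24 other S phase genes, 0 passed in edgeR in either direction (2 were lower and 1 higher at an unadjusted p under 0.05, against the same 11.6% and 13.5% of all genes), with a median log2 fold change of −0.03. DESeq2 called UHRF1 higher and limma called TK1 lower. The 24 genes summed to 1124 to 1169 FPKM in the libraries labelled PBS and 1051 to 1108 in those labelled rFGF4. These sums did not overlap, and the ratio of means was 94.4%, beside 86.8% for the clustered histone genes. PCNA, the most abundant of the list at a mean of 307 FPKM, was lower in all 4 libraries labelled rFGF4. RRM1 and TK1 were likewise lower, so 12.5% of the list did not overlap downwards, against 10.4% of all genes. E2F1 was higher in all 4.

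RNAs that lack a poly(A) tail were followed because they, like the stem-loop histone mRNAs, depend on how libraries were made. The list's 13 entries summed to 19.5 to 32.0 FPKM in the libraries labelled PBS and 22.8 to 51.5 in those labelled rFGF4, with overlap, and rFGF4 replicates 2 and 4 were highest. Of the 6 tested, 0 fell and 1 rose: SNORA73B, a small nucleolar RNA that lies within the gene SNHG3, went from 5.09 ± 1.06 to 7.95 ± 0.475 FPKM (SD, n = 4; log2 fold change 0.66, SE 0.165, edgeR adjusted p = 0.0390). Leaving out any library other than PBS replicate 3 ended its call. SCARNA2 and TERC were listed at 0. The part of library preparation in the histone values was not tested.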

How the data were processed

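RNA-seq values of 8 libraries, 4 labelled PBS and 4 labelled rFGF4, were analysed. The submitters' processing notes name HISAT2 2.0 and StringTie 1.3.0 without their roles. The sources used here do not name the settings, the genome build or the annotation. The authors deposited FPKM and counts per gene and library, per the file headers. The deposited counts are whole numbers that behave as estimated counts, with low values piling up at multiples of 4, so 3 fragments were taken as 12 counts. Column names (C or FGF4 and a replicate number) were the only link between values and samples. Y-linked genes and the pair XIST and TSIX were set aside (521 of 58825 genes).

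Counts were tested with edgeR 4.0.16 in R 4.3.3 (TMM scaling, quasi-likelihood, two-sided) over the 11536 genes whose FPKM averaged at least 1, Benjamini-Hochberg adjusted, at a threshold of 0.05. DESeq2 1.42.0, limma 3.58.1 on log2(FPKM + 1), other filters and scalings, a replicate block and leaving out each library were the alternatives. Fold changes are rFGF4 over PBS, and each SE was derived from the test statistic. The fit was tested on simulated data.

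The members and lists were chosen with earlier results of these data known. The text names members past the threshold, the 2 highest of each class, the 3 largest fold changes in each direction, neighbours and head-to-head partners of called members, the 5 members known for polyadenylated transcripts, up to 4 called genes of each list, and SLBP, NPAT, H2AFX, H2AFZ, H3F3A, H3F3B and H1F0. Other genes were named after their values were seen. No pair of libraries within a group agreed within sampling noise (chi-square per degree of freedom 22.5 to 64.9). Same-numbered libraries of the groups correlated by 0.138, 0.081, −0.024 and 0.207, and replicates 1, 2 and 4 matched their own number best. These values do not settle whether the numbers pair the libraries. The labels do not say that they do, so the main test was unpaired and a replicate block was an alternative. No sequence is shown, since the reference at hand is of mouse.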

Additional observations from a re-analysis of the deposited data

Results flagged for a closer look

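In 72 groups of 4 libraries, the values of the 24 tested members and 12 related genes named here were searched for a library far from the other 3 by Dixon's criterion, which chance meets in about 1 of 20 groups. It was met 6 times. HIST1H2BK, the most abundant member, was at 151.7 FPKM in rFGF4 replicate 4 and at 132.6 to 134.1 in the other 3. H1F0 was at 66.6 FPKM in the same library and at 57.8 to 58.9 in the other 3. In rFGF4 replicate 2, HIST1H3H was at 1.41 FPKM (1.95 to 2.00 in the other 3) and HIST1H4K at 4.77 (3.69 to 3.87). HIST1H4J was at 2.69 FPKM in PBS replicate 4 (4.04 to 4.12 in the other 3), and HIST1H3D was at 1.13 in PBS replicate 2 (1.43 to 1.49). No cause was tested for any of them.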

How the results depend on the processing

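The main fit gave 3 of 24 members and 524 of 11536 genes lower. Without a filter these were 1 of 68 and 410 of 29674. Testing genes down to 0.1 FPKM gave 2 of 53 and 552 of 17964, and filterByExpr 2 of 45 and 536 of 18173. On the same 24 members, 5 were lower with RLE scaling and 6 with DESeq2. With limma at pseudocounts of 1 and 0.1, 6 and 5 were lower, and with counts divided by 4, 3 were. Of all genes, 540, 846, 588, 580 and 521 were lower in these fits. Leaving out each library in turn gave 0 to 5 lower members, with 0 without PBS replicate 2. In those fits 275 to 547 of all genes were lower, and 275 was also without PBS replicate 2. Members higher numbered 0 under every alternative. With the replicate block 2 members were lower, HIST1H2AG and HIST1H3E, and 452 of all genes were. In this check of the pairing, replicates 1, 2 and 4 correlated best with their own number and replicate 3 did not, a hint from the data and not from the design. The log2 fold change was below 0 in 19 to 23 of the 24 members over all alternatives, and their median ran from −0.42 to −0.24. Over the 78 genes of 4 related lists, 2 were lower: 1 with each other filter, 4 with DESeq2, 5 with limma at either pseudocount, and 0 to 5 leaving out a library. Another 2 were higher: 1 with a filter at 0.1 or none, 5 with DESeq2, 1 with limma at either pseudocount, and 0 to 3 leaving out a library. Beside these counts, the main edgeR fit gave 4.54% of all genes lower and 5.49% higher. DESeq2 gave 7.33% and 8.51% of all genes, and limma at a pseudocount of 1 gave 5.10% and 4.94%. The edgeR adjusted p of HIST1H2AG was 0.0566 without PBS replicate 2 and 0.0523 without rFGF4 replicate 1. No call of a named gene changed direction under these alternatives. The cause of these changes was not tested, and members under 12 counts allow no comparison at this depth.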
